A study of Mus musculus with 3 samples.

Results

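Neurogenic cellulates were compared with untreated myoblasts across all genes of the array, 1 array against 1 array, which is 2 of the 3 arrays of the study. Cellulates are the mononuclear cells obtained when multinucleated muscle fibres in culture are split by a drug. The starting cells of every group were C2C12, an established mouse myoblast line that fuses into myotubes when serum is lowered. The myoblast array holds RNA of untreated C2C12 cells. The neurogenic array holds RNA of C2C12 cells that had been carried through a sequence of treatments. They were kept for 8 days in 2% horse serum to form myotubes, with 10 µM AraC from day 2 to day 4, a DNA synthesis inhibitor that kills dividing myoblasts. Myoseverin, a microtubule-binding compound that splits myotubes into fragments, was given at 20 µM for 48 h by the series text and at 30 µM by the treatment protocol. BIO, an inhibitor of glycogen synthase kinase 3, began 24 h after myoseverin and lasted 2 days, at 2.5 µM by the sample labels and at 10 µM by the series text and the protocol. The cells were then plated on laminin and received 250 nM reversine for 48 h, and 1.5 µM all-trans retinoic acid in DMEM/F12 with N2 supplement for 7 days. The medium in which the untreated myoblasts grew is not given in the sources used here. The remaining array, of cellulates after BIO and before the neurogenic steps, is given beside the other values and enters no fold change unless named. The samples were chosen by their labels alone, and no measured value was used. No array of myotubes, of cellulates without BIO or of myoblasts in neurogenic medium was analysed here, so fusion, AraC, myoseverin, BIO, reversine, retinoic acid, medium and time cannot be told apart.

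Myoblasts are dividing precursors that express the muscle-specifying factors, and on fusion they leave the cell cycle and switch on the contractile apparatus, the membranes that couple excitation to calcium release, and the enzymes that supply energy for contraction. Retinoic acid acts by binding nuclear receptors that sit on DNA next to their target genes, among them the enzymes that clear retinoic acid and genes of the Hox clusters, and it is widely used to push progenitors in culture towards neurons. Reversine is a purine that blocks several mitotic kinases and has been used to make muscle cells take up other fates.

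With 1 array a group there was no spread between samples to test against, so no p-value is given and no fold change carries an error. A fold change of 2 was used as the mark throughout. Repeat spots of the same probe on one array varied with an SD of 0.190 log2 on the myoblast array and 0.125 on the neurogenic array, over probes spotted 10 times. Between these arrays 95% of differences from spot noise alone lie within 1.36-fold, which covers the spotting and the scan and not the culture, the RNA or the labelling. Signals are given relative to each array's 75th percentile, which was set to 100. Of 43379 spots of non-control probes, 22014 (50.7%) were well above background in myoblasts and 19812 (45.7%) in neurogenic cellulates, and 0 spots were saturated. The lowest signal well above background was 7.52 in myoblasts and 16.8 in neurogenic cellulates, so weak genes were measured further down in myoblasts. A gene with no probe well above background is called at background. All 3 arrays were on 1 slide. Levels of different genes come from different probes and were not set against each other, though signals of marker genes were summed within a cell type. In a bulk sample, fewer cells of a kind and less RNA per cell cannot be told apart.

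Of 18348 genes with a named probe, 10885 were well above background on both arrays. In neurogenic cellulates 1018 of them (9.35%) were higher by 2-fold or more, 1199 (11.0%) were lower by as much, and 8668 (79.6%) lay within 2-fold. Very large differences were mostly upward: 91 genes were 8-fold or more higher and 24 lower by that much, and at 32-fold the counts were 28 and 1. The lower floor in myoblasts, 7.52 against 16.8, leaves more room for large upward ratios. The 8-fold and 32-fold counts were not repeated under other scalings. The median log2 ratio of all 10885 genes was -0.15, and 95% of them lay between -1.75 and 1.91 on the log2 scale. Higher genes made up 45.9% of those past 2-fold. That share was 6.71% with each array scaled to its median, which takes 0.73 off every log2 ratio. It was 73.9% with the 75th percentile taken over bright probes, which adds 0.32 to every ratio, 53.7% after quantile normalisation, 25.9% with another background correction and 76.9% with no filter on weak genes. A list of genes is therefore described below by its counts and its median beside the all-gene values of 9.35%, 11.0% and -0.15.

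The balance also moved with the level of the gene. Among the 2406 genes with a mean signal between 1000 and 10000 (the mean of the log2 signals of the 3 arrays), 3.66% were at least 2-fold higher and 15.8% lower, with a median log2 ratio of -0.41. The 453 genes above 10000 had a median of -0.54. Among the 1230 genes with a mean signal under 30, 28.5% were higher and 0.813% lower. A gene had to exceed the floors of 7.52 in myoblasts and 16.8 in neurogenic cellulates to enter this count, so a weak gene could hardly read 2-fold lower, and the split among weak genes follows in part from the floors.

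A further 539 genes were well above background in neurogenic cellulates alone and 1431 in myoblasts alone. For these the fold is a lower bound, with the dim array's floor, or the probe's own reading there if that is larger, as the divisor. All 539 (100%) of the former and 92 (6.43%) of the latter had a bound of at least 2-fold, and the first share follows from the floors of 16.8 and 7.52. The bound was at least 8-fold for 74 of the 539.

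**Figure D1:**
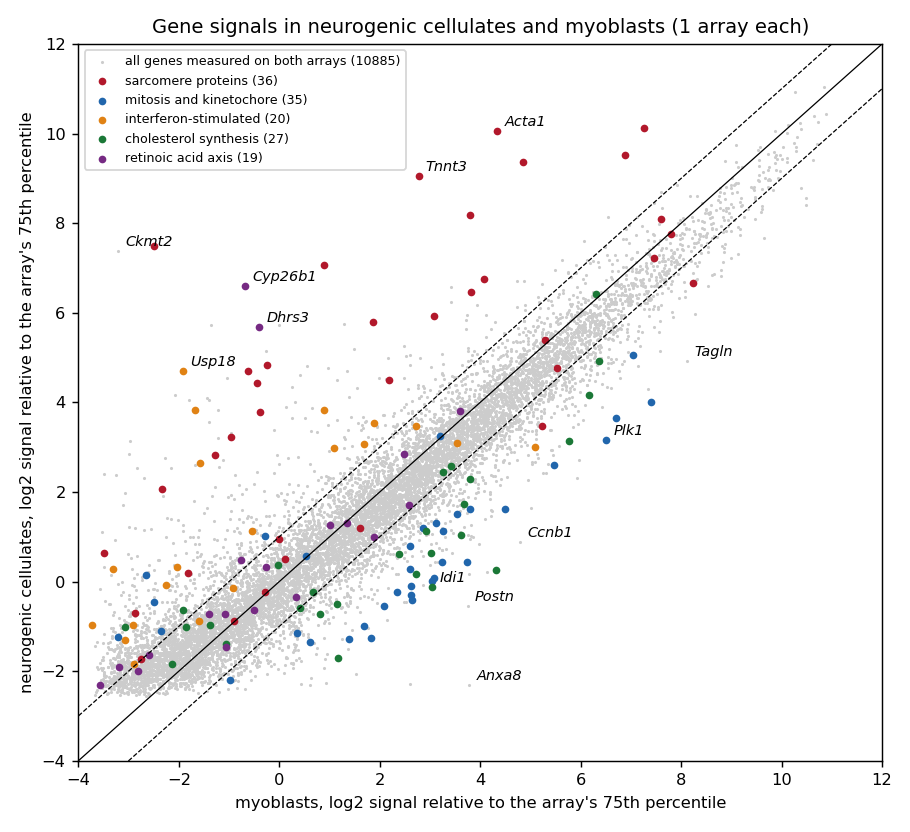
Log2 signals of the 10885 genes well above background on both arrays, relative to each array's 75th percentile, with myoblasts on the x axis and neurogenic cellulates on the y axis (1 array each). The solid line marks equal signals and the dashed lines 2-fold, and coloured points are members of 5 gene lists. Above the upper dashed line lie 24 of 36 sarcomere, 15 of 20 interferon-stimulated and 5 of 19 retinoic acid genes, and below the lower one lie 28 of 35 mitosis and 16 of 27 cholesterol synthesis genes.

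Where a gene had several probes, the others gave a check on its fold change. Of 2894 genes with 2 or more probes well above background on both arrays, 153 were at least 2-fold higher by their brightest probe. A second probe passed 2-fold the same way, with none passing the other way, in 100 of these (65.4%), and 4 had a probe at least 2-fold lower. Of 355 lower genes 201 (56.6%) were matched in this way, and 13 had a probe at least 2-fold higher. The largest matched ratios were those of muscle genes and of Dhrs3, an enzyme that reduces retinaldehyde to retinol. Some probes behaved alone: 2570 probes were dim in myoblasts although another probe of the gene was bright, and 207 of them (8.05%) were well above background and at least 4-fold brighter in neurogenic cellulates, while the bright probes of those genes had a median log2 ratio of -0.27. In the other direction the count was 27 of 2892 (0.934%). Fold changes below are those of the brightest probe, and those of second probes are given for the main genes that have one.

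**Figure D2:**
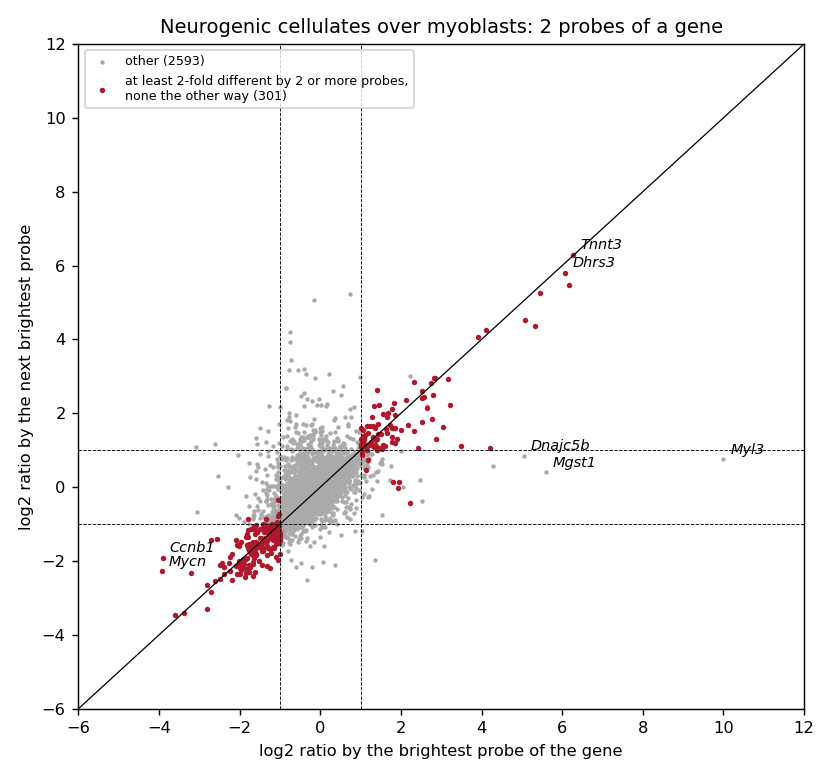
Log2 ratio of neurogenic cellulates over myoblasts by the brightest probe of a gene (x axis) and by its next brightest probe (y axis), for the 2894 genes with 2 or more probes well above background on both arrays. Red points are the 301 genes past 2-fold by 2 or more probes with none the other way, dashed lines mark 2-fold and the solid line marks equal ratios. Tnnt3 and Dhrs3 lie close to the line of equal ratios, whereas Myl3 was 9.99 by its brightest probe and 0.75 by the other.

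Contractile proteins of skeletal muscle had the highest median of the 32 lists. Of 36 sarcomere genes well above background on both arrays, 24 were at least 2-fold higher and 2 lower, with a median log2 ratio of 2.66. Of 50 on the array, another 9 were well above background in neurogenic cellulates alone.

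Fast skeletal troponin and the thin filament carried some of the largest differences. Tnnt3, fast troponin T, had signals of 684 in myoblasts, 81237 in BIO cellulates and 53165 in neurogenic cellulates. It was thus 77.8-fold higher than in myoblasts, and its second probe gave 78.4-fold. Tnni1, the slow isoform of troponin I, had 186 in myoblasts, 8989 in BIO cellulates and 13325 in neurogenic cellulates, which is 71.7-fold higher. The neurogenic value stood above the BIO value for Tnni1 and below it for Tnnt3, and both cellulate arrays were far above the myoblast array. Acta1, skeletal alpha-actin, measured 2020 in myoblasts, 111017 in BIO cellulates and 105928 in neurogenic cellulates, a 52.4-fold difference by its only probe. Tnni2, fast troponin I, was 21.1-fold higher, and Tnnc2, fast troponin C, was 7.32-fold higher from 15344 to 112332. Tpm1, a tropomyosin, was 6.27-fold higher with a second probe past 2-fold, while a further probe of it was at least 2-fold lower.

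Giant and scaffold proteins followed the same pattern. Neb, nebulin, which spans the thin filament, had signals of 84.6 in myoblasts, 1643 in BIO cellulates and 2851 in neurogenic cellulates and was 33.7-fold higher, with all 5 of its probes past 2-fold. Ttn, titin, the elastic protein from Z-disc to M-line, was 17.2-fold higher (41.1 against 708). Mybph, myosin-binding protein H, was 40.1-fold higher. Des, desmin, the muscle intermediate filament, moved from 51 to 942, and Xirp1, an actin-binding repeat protein, from 73.8 to 2175. Among genes seen on the neurogenic array alone, Mybpc1, slow myosin-binding protein C, was at least 25-fold higher. Lmod2, a thin filament nucleator, was at least 26.5-fold higher.

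Myosin genes did not all move alike. Myh3, the embryonic heavy chain, had signals of 363 in myoblasts, 10912 in BIO cellulates and 5509 in neurogenic cellulates and was 15.2-fold higher, and its second probe gave 16.8-fold. Myh8, the perinatal heavy chain, measured 1696 in myoblasts, 4044 in BIO cellulates and 10774 in neurogenic cellulates, a 6.35-fold difference. Myh1, the adult fast IIx chain, measured 1407 in myoblasts, 3438 in BIO cellulates and 8763 in neurogenic cellulates and was 6.23-fold higher. For both of the later chains the neurogenic value was over 2-fold above the BIO value, and for Myh3 it was below it. Myh2 and Myh4, the other adult fast chains, were weak, at 61 and 30.4 in neurogenic cellulates against 13.6 and 14.8 in myoblasts. Myh7, the slow chain, passed the background test in myoblasts alone, with 21.5. Myl4, the embryonic light chain, was 7.21-fold higher from 843 to 6085, with 27159 on the BIO array. Myl3, a slow and ventricular light chain, had the largest sarcomere difference, 1016-fold, by a probe that measured 17.8 in myoblasts, 2885 in BIO cellulates and 18044 in neurogenic cellulates. Its other probe read 40.8, 66.2 and 68.7 on the same arrays, so the gene's fold change depends on the probe.

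Some members that were already strong in myoblasts stayed within 2-fold. Tpm2 measured 22202 in myoblasts and 21609 in neurogenic cellulates, Tnnc1 measured 19283 and 27455, and Tnnt1 measured 3896 and 4190. Actc1, cardiac alpha-actin, which embryonic skeletal muscle also makes, was 3.4-fold lower, with signals of 3769 in myoblasts, 2365 in BIO cellulates and 1110 in neurogenic cellulates. Tpm3 was 3-fold lower by one probe (30332 against 10094) and 1.34 log2 higher by a second.

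Sequence before the start sites of sarcomere genes held known muscle motifs more often than the promoters of all genes. In windows from 250 bases before to 50 after the start, on both strands, the myogenic E-box CAGCTG was found in 15 of 37 matched members (40.5%) and in 18.3% of all 27025 genes. A MEF2 motif was in 7 (18.9% against 3.7%) and a CArG box, the motif of serum response factor, in 6 (16.2% against 1.81%). The A/T-rich MEF2 and CArG motifs can overlap. The following 100-base stretches, in RefSeq GRCm38.p6 coordinates and read 5′ to 3′ on the gene's strand, show 1 example of each before genes with large differences, with the motif in capitals (the E-box of Tnni1, the CArG box of Acta1 and the MEF2 motif of Myh8). A match describes these letters only.
Tnni1 (chr1:135799306-135799405, plus strand): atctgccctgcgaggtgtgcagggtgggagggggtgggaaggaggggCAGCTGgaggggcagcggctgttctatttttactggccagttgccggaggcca
Acta1 (chr8:123894794-123894893, minus strand): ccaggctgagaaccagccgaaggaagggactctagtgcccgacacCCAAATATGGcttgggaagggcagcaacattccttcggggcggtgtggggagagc
Myh8 (chr11:67276980-67277079, plus strand): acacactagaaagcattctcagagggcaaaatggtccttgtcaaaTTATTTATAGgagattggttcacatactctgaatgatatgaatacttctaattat

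Excitation-contraction coupling, the machinery that turns a membrane potential into calcium release, was higher in 11 of 19 measured members and lower in 0, with a median of 1.07. Ryr1, the calcium release channel of the sarcoplasmic reticulum, had signals of 38.2 in myoblasts, 1540 in BIO cellulates and 1669 in neurogenic cellulates and was 43.8-fold higher, with 38-fold by its second probe. Sln, sarcolipin, a small inhibitor of the calcium pump, was 42.2-fold higher from 83.6 to 3527. Hrc, a calcium-binding protein of the same store, was 33.2-fold higher. The pumps themselves, Atp2a1 and Atp2a2, were 6.88-fold and 3.79-fold higher, both by 2 probes, though a further probe of Atp2a2 lay at -0.03 log2. Cacna1s, the voltage sensor of the transverse tubule, was 3.68-fold higher, and Stac3, which holds it to the release channel, 3.62-fold. Tmem38a, a potassium channel of the calcium store, was 7.1-fold higher by 2 probes. Jph2, a junctional membrane protein, measured 361 and 230 and did not pass 2-fold, nor did the sodium channel Scn4a at 293 and 298. The E-box CAGCTG lay in 7 of 15 matched promoters of this list (46.7%).

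Enzymes of muscle energy supply included the largest ratio on the arrays. Of 20 measured, 9 were at least 2-fold higher and 0 lower, with a median of 0.69, or -0.04 with each array scaled to its median. Ckmt2, a creatine kinase of muscle mitochondria, had signals of 10.9 in myoblasts, 23642 in BIO cellulates and 16640 in neurogenic cellulates and was 1530-fold higher by its only probe, from a myoblast value near the floor. Ckm, cytosolic muscle creatine kinase, measured 12.6 in myoblasts, 616 in BIO cellulates and 717 in neurogenic cellulates, a 57-fold difference. Both kinases were near the floor in myoblasts and high on both cellulate arrays. Pygm, muscle glycogen phosphorylase, was 46.5-fold higher, Cox6a2, the muscle isoform of a cytochrome oxidase subunit, 52.9-fold, and Mb, myoglobin, 25.6-fold. Ampd1, muscle AMP deaminase, was seen on the neurogenic array alone and was at least 73.6-fold higher. Ldha and Pfkm, glycolytic enzymes that many cells use, measured 59537 and 8125 in myoblasts against 33773 and 6929, within 2-fold.

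Transcription factors that specify muscle stood mostly within 2-fold. Of 16 measured, 2 were higher and 1 lower, close to the shares of all genes, and the median was 0.43 (-0.30 with each array scaled to its median). Myog, myogenin, which drives terminal differentiation, had signals of 5395 in myoblasts, 6683 in BIO cellulates and 11757 in neurogenic cellulates and was 2.18-fold higher. It stood higher in neurogenic cellulates than on either other array. Myod1, the determination factor, measured 153 in myoblasts and 150 in neurogenic cellulates. Pax7, a satellite cell factor, measured 29 and 39.4, and Myf5 was at background on all 3 arrays. Mymk, a fusion protein of the myoblast membrane, measured 131 and 174. Eya4, a transcription cofactor, was 2.52-fold lower.

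At the neuromuscular junction, 7 of 14 measured genes were higher and 0 lower, with a median of 0.98. The acetylcholine receptor subunits Chrne, the adult subunit, and Chrng, the fetal one, were 3.91-fold and 3.85-fold higher, at 380 and 395. The weaker Chrna1 and Chrnd were 3.01-fold and 2.38-fold higher, at 49.3 and 60.1, and Ache, which breaks down acetylcholine, 2.04-fold. Of the higher members, 4 had a mean signal under 100 over the 3 arrays. Etv5, a transcription factor of the synaptic nuclei, was 2.71-fold higher, with 157 on the BIO array and 368 on the neurogenic array. Musk, the receptor that gathers the acetylcholine receptors, measured 111 and 116, and Rapsn, their anchor, 3396 and 2147, neither past 2-fold.

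**Figure D3:**
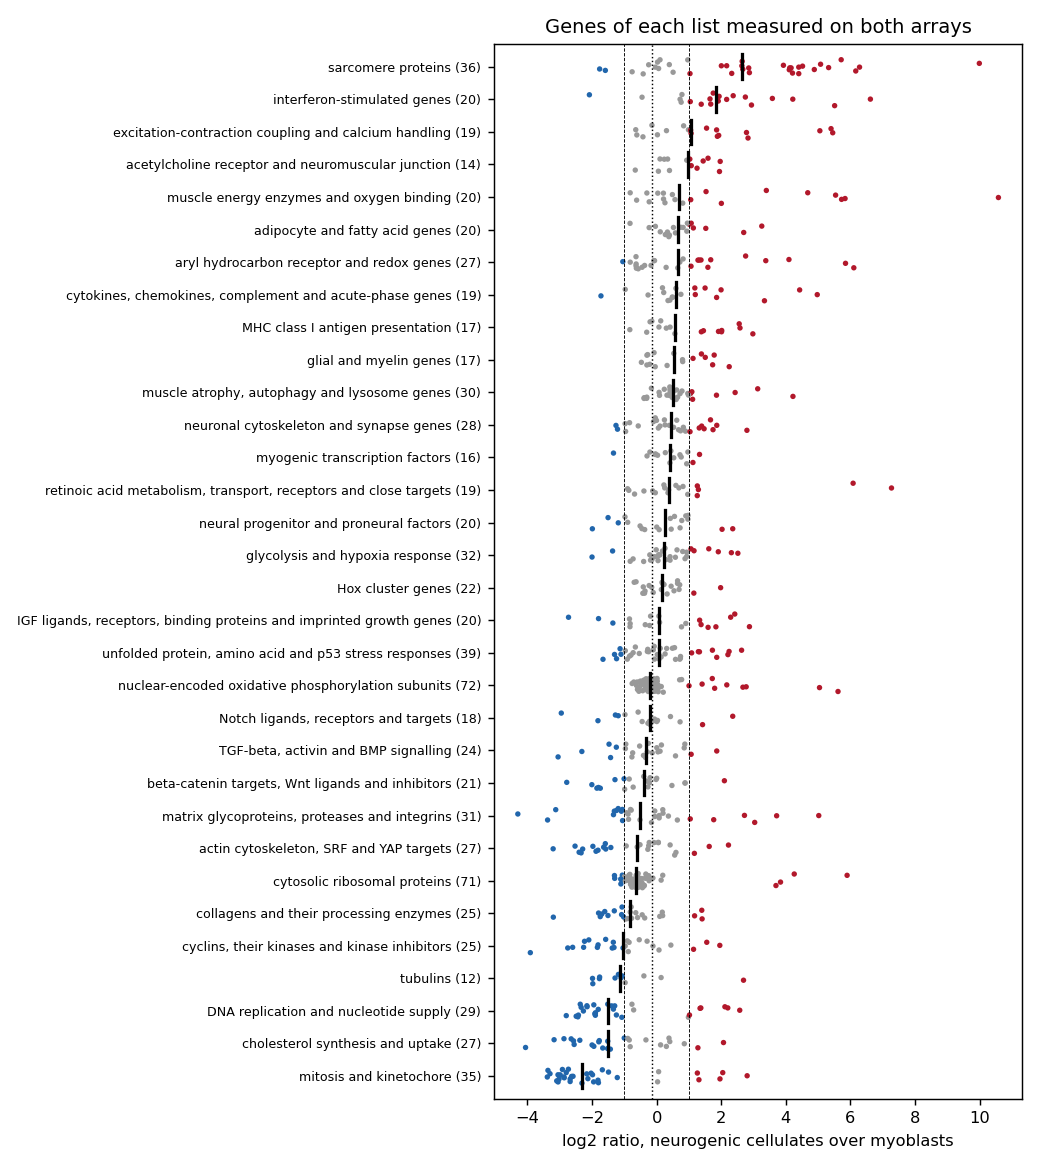
Log2 ratios of neurogenic cellulates over myoblasts for members of 32 gene lists well above background on both arrays, with the number of such members in parentheses. Each point is a gene (red at least 2-fold higher, blue at least 2-fold lower), the thick bar is the list's median, the dashed lines mark 2-fold and the dotted line the median of all genes, -0.15. Sarcomere genes have the highest median, 2.66, and mitosis genes the lowest, -2.31.

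Genes of cell division were broadly lower. Of 35 mitosis and kinetochore genes measured on both arrays, 28 were at least 2-fold lower and 5 higher, with a median of -2.31. Plk1, a kinase that drives entry into and exit from mitosis, had signals of 9137 in myoblasts, 1128 in BIO cellulates and 888 in neurogenic cellulates and was 10.3-fold lower. Kif20a, a kinesin of the central spindle, measured 16783 in myoblasts, 2216 in BIO cellulates and 1607 in neurogenic cellulates, a 10.4-fold difference. Both genes were already low on the BIO array. Tacc3, a spindle protein, was 9.85-fold lower, Pttg1, securin, which guards sister chromatid cohesion, moved from 10415 to 1255, and Cdc20, an activator of the anaphase-promoting complex, from 4421 to 604. Kif23, a motor of cytokinesis, was 6.96-fold lower with 6.23-fold by its second probe, and Cdca2, a chromatin regulator of mitotic exit, was 6.12-fold lower with 5.79-fold. Mki67, the antigen used to count cycling cells, measured 1384 in myoblasts, 178 in BIO cellulates and 309 in neurogenic cellulates and was 4.48-fold lower.

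The 5 mitosis genes that read higher were weak in myoblasts. Incenp measured 15.9 in myoblasts and 111 in neurogenic cellulates, Cenpe 17.8 and 73.5, Nuf2 10.9 and 42.3, and Birc5, survivin, 81.8 and 203. Another 5 members were well above background on the neurogenic array alone, where the floors give every gene a bound of at least 2-fold. Aurka, the spindle pole kinase, was at least 10.6-fold higher, and Tpx2, which activates it, at least 6.02-fold. Kif4, a kinesin of chromosomes, Cenpa, the histone of centromeres, and Top2a, a topoisomerase, were at least 4.21-, 2.85- and 2.46-fold higher. Of the 4 members seen in myoblasts alone, 1 had a bound past 2-fold, Kif11, a spindle motor, at least 3.09-fold lower. Cdca8 was 8.52-fold lower by its brighter probe (354 against 41.5) and 1.10 log2 higher by its weaker one (48.2 against 103). How far such weak probes respond to these transcripts was not tested.

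DNA replication followed. Of 29 measured genes 20 were lower and 6 higher, with a median of -1.51. Gins1, a subunit of the replicative helicase complex, had signals of 1405 in myoblasts, 212 in BIO cellulates and 202 in neurogenic cellulates and was 6.95-fold lower, with 9.88-fold by its second probe. Pold1, the catalytic subunit of DNA polymerase delta, measured 4293 in myoblasts, 1011 in BIO cellulates and 764 in neurogenic cellulates and was 5.62-fold lower. Mcm7, a subunit of the MCM helicase ring, was 5.42-fold lower and Chaf1b, which loads histones behind the fork, 5.36-fold. Pcna, the sliding clamp, measured 10530 and 4442, a 2.37-fold difference. Of 4 members seen on the neurogenic array alone, Dut and Pole were at least 9.24-fold and 3.85-fold higher. The others were Mcm2 and Mcm4, of the same ring as Mcm7, at 38.1 and 120, while Mcm3 and Mcm6 were 4.44-fold and 3.72-fold lower from 947 and 1718. The weak Rrm1, Rfc4, Mcm10 and Tk1 were 5.95-, 4.6-, 4.33- and 2.58-fold higher, at 59.7, 105, 58.8 and 49 in neurogenic cellulates.

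Among cyclins, their kinases and kinase inhibitors, 13 of 25 were lower and 3 higher, with a median of -1.04. Ccnb1, cyclin B1, which activates Cdk1 for mitosis, had signals of 2770 in myoblasts, 261 in BIO cellulates and 184 in neurogenic cellulates and was 15-fold lower, with 3.77-fold by its second probe. Cdk1 itself measured 1848 in myoblasts, 291 in BIO cellulates and 274 in neurogenic cellulates and was 6.73-fold lower. Ccna2, cyclin A2, was 4.79-fold lower, Ccne1, cyclin E1, 3.56-fold, and Foxm1, the transcription factor of late cell cycle genes, 4.7-fold. Cdc25b, a phosphatase that activates Cdk1, was 6.06-fold lower by its brighter probe and 1.17 log2 higher by another. The weak Ccnb2, cyclin B2, and Cdkn3, a phosphatase of Cdk1, went against these and were 3.88-fold and 2.93-fold higher, at 94.1 and 31.2. Several inhibitors and D-type cyclins stayed within 2-fold, whereas Cdkn2c, p18, was 3.51-fold lower. Cdkn1a, p21, measured 342, 562 and 464 on the 3 arrays, Cdkn1b, p27, 1794, 1206 and 1236, and Ccnd2, cyclin D2, 7781, 11051 and 8188. Myc and Mycn, related growth regulators, stood on opposite sides: Myc was 2.21-fold higher (243 against 537, with 2 of 3 probes past 2-fold), and Mycn was 15.2-fold lower, with signals of 1754 in myoblasts, 385 in BIO cellulates and 115 in neurogenic cellulates and 4.82-fold by its second probe.

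The promoters of these genes were searched for elements known from cell cycle genes. The CHR letters TTTGAA, bound by the DREAM complex that silences division genes in resting cells, were found in 29 of 42 matched mitosis genes (69%) against 20.2% of all genes, in 19 of the 26 matched lower ones and in 0 of the 3 matched higher ones. In the cyclin list they were found in 8 of 25 (32%), with 3 of the 9 matched lower members and both matched higher ones, Ccnb2 and Cdkn3. CCAAT was found in 30 of 42 (71.4% against 41.1%). The E2F letters TTTCCCGC were found in 6 of 31 matched replication genes (19.4% against 1.24%), each of them lower. Examples before genes with large differences follow, with the CHR of Cdc20, Cdk1 and Ncapg and the E2F letters of Mcm7 and Cdc6, on either strand, in capitals.
Cdc20 (chr4:118437344-118437443, minus strand): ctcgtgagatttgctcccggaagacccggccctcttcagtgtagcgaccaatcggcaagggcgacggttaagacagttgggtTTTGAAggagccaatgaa
Cdk1 (chr10:69352913-69353012, minus strand): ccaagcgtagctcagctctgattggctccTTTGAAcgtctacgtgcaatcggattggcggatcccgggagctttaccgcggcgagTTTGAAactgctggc
Ncapg (chr5:45669825-45669924, plus strand): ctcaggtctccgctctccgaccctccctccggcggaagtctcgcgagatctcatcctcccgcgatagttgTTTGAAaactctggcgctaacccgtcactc
Mcm7 (chr5:138171995-138172094, minus strand): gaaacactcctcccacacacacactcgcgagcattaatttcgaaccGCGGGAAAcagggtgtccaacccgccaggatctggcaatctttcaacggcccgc
Cdc6 (chr11:98907967-98908066, plus strand): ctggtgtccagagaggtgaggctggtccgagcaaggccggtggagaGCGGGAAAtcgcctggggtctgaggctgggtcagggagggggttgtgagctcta
Cdc20, Cdk1 and Ncapg were 7.32-, 6.73- and 6.39-fold lower, and Mcm7 and Cdc6, the latter a loader of the MCM ring, 5.42- and 5.05-fold lower.

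A few retinoic acid genes were very high, and 14 of 19 measured members lay within 2-fold. In all, 5 were at least 2-fold higher and 0 lower, and the median was 0.37 (-0.36 with each array scaled to its median). Cyp26b1, a cytochrome P450 that oxidises retinoic acid, had signals of 62.4 in myoblasts, 29.5 in BIO cellulates and 9634 in neurogenic cellulates and was 154-fold higher than in myoblasts by its only probe. Dhrs3 had signals of 75.8 in myoblasts, 44.1 in BIO cellulates and 5133 in neurogenic cellulates, a 67.7-fold difference that its second probe gave as 55.9-fold. Both genes were below their myoblast level on the BIO array. Rarb, the receptor whose gene is itself a retinoic acid target, read 2.51 in myoblasts and 4.07 in BIO cellulates, neither well above background, and 32.6 in neurogenic cellulates, at least 4.34-fold higher. Tgm2, tissue transglutaminase, measured 58.7 in myoblasts, 47.5 in BIO cellulates and 140 in neurogenic cellulates and was 2.39-fold higher by 2 probes. Crabp1, a cytosolic retinoic acid carrier, was 2.45-fold higher, with 10.9 in myoblasts, 32.5 in BIO cellulates and 26.8 in neurogenic cellulates. Its BIO value thus stood above the neurogenic one. Cyp26a1, the close relative of Cyp26b1, was 2.4-fold higher but weak, at 8.46 in myoblasts and 20.3 in neurogenic cellulates.

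The receptors and the enzymes of synthesis differed little. Rara measured 47.8 and 36.4, Rarg 201 and 239, and Rxra 37.8 and 61. Aldh1a1 and Aldh1a2, which make retinoic acid from retinaldehyde, measured 47.3 and 14.2 in myoblasts and 60.4 and 25 in neurogenic cellulates, and Stra6, a retinol importer, 126 and 78.4. None of these passed 2-fold.

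Of 22 measured Hox genes, 2 were higher, which at 9.09% is close to the 9.35% of all genes, and 0 were lower. The median was 0.18 (-0.55 with each array scaled to its median). Hoxa5 had signals of 115 in myoblasts, 82.7 in BIO cellulates and 453 in neurogenic cellulates and was 3.95-fold higher. Hoxa4, its neighbour in the cluster, measured 413 in myoblasts, 414 in BIO cellulates and 917 in neurogenic cellulates and was 2.22-fold higher, with 2.15-fold by its second probe. Both were flat between myoblasts and BIO cellulates or lower there. Hoxa3, nearer the end of the cluster that responds first to retinoic acid in embryos, measured 78.9 in myoblasts and 67.2 in neurogenic cellulates, though its second probe was past 2-fold upward. A direct repeat that retinoic acid receptors bind was in 2 of 23 matched promoters of the retinoic acid list (8.7%) against 0.115% of all genes. That of Cyp26a1 is printed with the repeat in capitals, since the gene's fold change was far below that of Cyp26b1.
Cyp26a1 (chr19:37697708-37697807, plus strand): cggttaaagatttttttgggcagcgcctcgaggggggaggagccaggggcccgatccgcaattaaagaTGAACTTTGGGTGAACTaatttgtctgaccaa

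**Figure D4:**
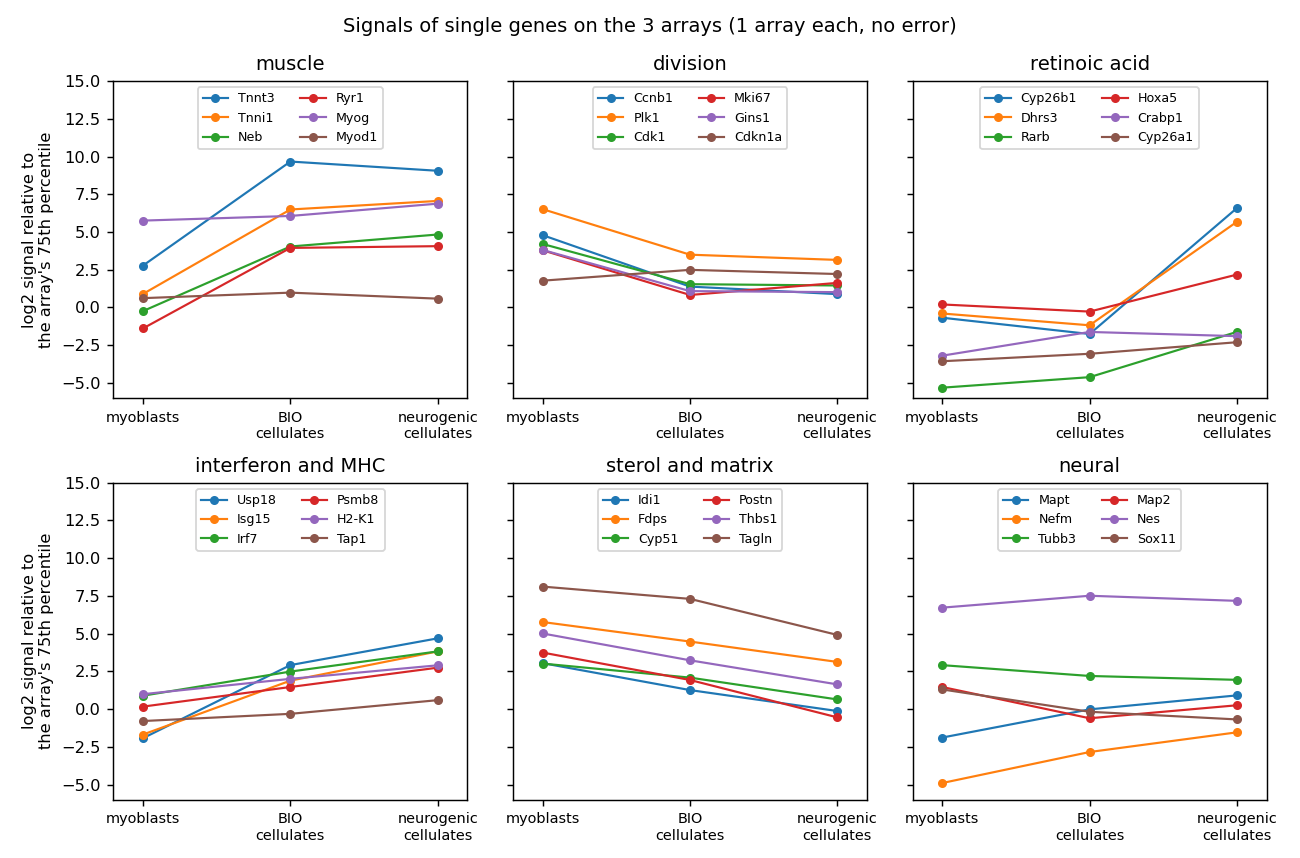
Log2 signals relative to each array's 75th percentile (y axis) of 36 genes in 6 groups on the myoblast, BIO cellulate and neurogenic cellulate arrays (x axis), 1 array each with no error bars and with lines only to join the points of a gene. Tnnt3, Neb and Ryr1 are high on both cellulate arrays, Ccnb1 and Plk1 are low on both, and Cyp26b1 and Dhrs3 are high on the neurogenic array alone.

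Interferon-stimulated genes were broadly higher too. Of 20 measured, 15 were at least 2-fold higher and 1 lower, with a median of 1.83, and 4 more were seen on the neurogenic array alone. Usp18, which removes the ubiquitin-like ISG15 from proteins, had signals of 26.4 in myoblasts, 756 in BIO cellulates and 2586 in neurogenic cellulates and was 98.1-fold higher. Isg15 itself measured 31.2 in myoblasts, 370 in BIO cellulates and 1420 in neurogenic cellulates, a 45.6-fold difference. Oas1f, which is not on the list but belongs to the oligoadenylate synthetase family that senses double-stranded RNA, was 137-fold higher, with signals of 38.9 in myoblasts, 1045 in BIO cellulates and 5324 in neurogenic cellulates. For all 3 genes the BIO array lay between the others. Rtp4 was 18.6-fold higher, Irf7, a transcription factor that amplifies the response, 7.65-fold from 186 to 1421, and Oasl1 12-fold from 10.1. The RNA sensors Ddx58 and Ifih1 measured 94.4 and 65.8 in neurogenic cellulates, the latter not well above background in myoblasts. None of the 15 higher members had a second probe past 2-fold, and 7 of them had a mean signal under 100 over the 3 arrays. Among the 11 members at 100 or more, 8 were higher and 1 lower, with a median of 1.675.

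The transcription factors Stat2 and Irf9 and the target Ifit1 were not well above background on the myoblast or the neurogenic array, and 14 members of the list in all were not. In sequence, the interferon response core GAAANNGAA was in 19 of 29 matched promoters of the list (65.5%), in 7 of the 12 matched higher members, and in 9.76% of all genes. The stretches below show it, in capitals on either strand, before Isg15, where 3 copies run together, and before Bst2, a protein that tethers budding virus, and H2-T23, an MHC class Ib gene.
Isg15 (chr4:156200831-156200930, minus strand): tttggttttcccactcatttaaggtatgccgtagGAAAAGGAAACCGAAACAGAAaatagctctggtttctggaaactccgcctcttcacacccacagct
Bst2 (chr8:71537543-71537642, minus strand): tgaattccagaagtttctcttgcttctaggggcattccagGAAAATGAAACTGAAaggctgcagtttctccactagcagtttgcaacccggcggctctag
H2-T23 (chr17:36032771-36032870, minus strand): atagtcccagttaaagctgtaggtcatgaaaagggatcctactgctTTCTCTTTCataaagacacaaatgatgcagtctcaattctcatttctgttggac
Bst2 was 3.19-fold higher, from 68.8 to 220.

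Genes of MHC class I antigen presentation were higher in 8 of 17 members and lower in 0, with a median of 0.57, or -0.16 with each array scaled to its median. H2-T23 had signals of 23 in myoblasts, 50.7 in BIO cellulates and 181 in neurogenic cellulates and was 7.88-fold higher. H2-K1, a classical class I heavy chain, measured 199 in myoblasts, 402 in BIO cellulates and 750 in neurogenic cellulates and was 3.77-fold higher with 2 probes past 2-fold, and H2-D1, the other classical chain, measured 287 and 354. RNA of near-identical H2 genes can bind the same probe, so members of this family are uncertain. Psmb8 and Psmb9, subunits of the immunoproteasome, were 5.98-fold and 5.88-fold higher, and Psmb8 had 5.47-fold by its second probe. Tap1 and Tap2, the peptide transporter, were 2.61-fold and 2.73-fold higher. H2-Q4, another class Ib gene, was 4.04-fold higher. B2m, the shared light chain, read 1.85 and 3.65 in myoblasts and BIO cellulates, neither well above background, and 185 in neurogenic cellulates. Its other probe read 1.86, 3.81 and 80.3. Whether the low readings on the first 2 arrays reflect the transcript was not tested. The core motif was in 5 of 17 matched promoters (29.4%), and among the 7 matched higher members H2-T23 alone had it.

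Cytokines, chemokines, complement and acute-phase genes were higher in 8 of 19 and lower in 1, with a median of 0.60, or -0.13 with each array scaled to its median. Ccl7, a monocyte chemokine, had signals of 37.7 in myoblasts, 365 in BIO cellulates and 1182 in neurogenic cellulates and was 31.4-fold higher, and Ccl2, a related one, 3.62-fold. Clu, clusterin, a secreted chaperone, measured 42.8 in myoblasts, 38.9 in BIO cellulates and 920 in neurogenic cellulates, a 21.5-fold difference with the BIO signal near that of myoblasts. Vcam1, an adhesion receptor for leukocytes, was 10.1-fold higher, with signals of 222 in myoblasts, 328 in BIO cellulates and 2246 in neurogenic cellulates. Il6 was 3.98-fold higher but weak, at 88, and Saa3, an acute-phase protein, was at least 21.9-fold higher. Cxcl12, a chemokine that guides muscle precursors, was 3.3-fold lower, with signals of 6967 in myoblasts, 3292 in BIO cellulates and 2110 in neurogenic cellulates.

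Cholesterol synthesis and uptake was lower along most of the pathway. Of 27 measured genes, 16 were at least 2-fold lower and 2 higher, with a median of -1.51. Hmgcs1, a synthase early in the pathway, passed the background test in myoblasts alone, with 19.9. Mvk, mevalonate kinase, was 2.86-fold lower, and Fdps, farnesyl diphosphate synthase, 6.25-fold from 5468 to 874. Idi1, which isomerises the isoprene unit, had signals of 828 in myoblasts, 240 in BIO cellulates and 91.8 in neurogenic cellulates and was 9.03-fold lower. Fdft1 and Sqle, which make and oxidise squalene, were 5.95-fold and 3.46-fold lower. Later steps went the same way: Cyp51 was 5.2-fold lower with 2 probes past 2-fold, Msmo1 4-fold and Dhcr7 7.3-fold. For Idi1 and Cyp51 the neurogenic signal was over 2-fold below the BIO signal, and for Dhcr7 (33.7 and 30.7) they were alike.

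Genes of transport and control were lower too. Srebf2, the transcription factor of the pathway, was 3.18-fold lower by 1 of its 2 probes, and Insig1, which retains it, 2-fold. Stard4, a cholesterol carrier, was seen in myoblasts alone and was at least 4.77-fold lower. Fatty acid enzymes were mixed, with Fasn 2.85-fold lower, Acly at 1072 and 596, and the weak Scd1 and Srebf1 4.2-fold and 2.42-fold higher. CCAAT was in 19 of 21 matched promoters (90.5% against 41.1% of all genes), and the sterol element letters TCACCCCAC were in 1 (4.76% against 0.614%). The CCAAT pairs of Dhcr7 and Msmo1 are shown in capitals, on either strand, since both genes were lower and hold 2 copies each.
Dhcr7 (chr7:143830114-143830213, plus strand): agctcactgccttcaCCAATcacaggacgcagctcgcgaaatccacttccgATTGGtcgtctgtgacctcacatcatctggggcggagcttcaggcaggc
Msmo1 (chr8:64733582-64733681, minus strand): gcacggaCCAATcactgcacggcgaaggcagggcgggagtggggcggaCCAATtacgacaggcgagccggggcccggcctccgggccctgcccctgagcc

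Matrix and its assembly were lower in part. Of 25 collagen and collagen-processing genes 10 were lower and 3 higher, with a median of -0.82. Col1a1, of fibrillar type I collagen, had signals of 45569 in myoblasts, 19139 in BIO cellulates and 14042 in neurogenic cellulates and was 3.25-fold lower, with all 3 of its probes past 2-fold. Its partner chain Col1a2 measured 168225 and 123382, within 2-fold. Col5a1, which nucleates fibrils, was 3.47-fold lower by 2 probes, and P4ha3, a prolyl hydroxylase, 9.17-fold from 191 to 20.8. Col3a1, the collagen of elastic tissue, was 2.64-fold higher by 2 probes, with signals of 3764 in myoblasts, 8042 in BIO cellulates and 9922 in neurogenic cellulates, and Col18a1, a basement membrane collagen, was 2.65-fold higher. Adamts2, which trims procollagen, was 3.35-fold lower, and Col11a1 was 2.26-fold higher by 1 probe and 1.2-fold lower by its other.

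Of 31 other matrix, protease and integrin genes, 10 were lower and 6 higher, with a median of -0.52 (0.08 when genes below background were kept). Postn, periostin, had signals of 1345 in myoblasts, 382 in BIO cellulates and 68.5 in neurogenic cellulates and was 19.6-fold lower. Thbs1, thrombospondin 1, measured 3234 in myoblasts, 942 in BIO cellulates and 312 in neurogenic cellulates and was 10.4-fold lower, with all 3 probes past 2-fold. Nid2, a basement membrane linker, was 8.71-fold lower and Fn1, fibronectin, 2.37-fold by 2 probes. Higher members included Itga7, the laminin-binding integrin of muscle, with signals of 279 in myoblasts, 1596 in BIO cellulates and 3667 in neurogenic cellulates and 13.1-fold. The small proteoglycans Ogn and Dcn were 32.4-fold and 6.58-fold higher, and Dcn stood at 64.2 on the BIO array against 63.2 in myoblasts. Timp3, a protease inhibitor, was 8.2-fold higher, and Sparc, a collagen-binding glycoprotein, was 2.52-fold lower, or 1.29-fold by its second probe.

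Actin cytoskeleton genes, many of them targets of serum response factor or YAP, were lower in 12 of 27 and higher in 3, with a median of -0.60. Tagln, transgelin, an actin-binding protein of contractile cells, had signals of 27827 in myoblasts, 15827 in BIO cellulates and 3022 in neurogenic cellulates and was 9.21-fold lower with 5.05-fold by its second probe. Cnn1, calponin, was 5.05-fold lower, Flna, an actin crosslinker, 3.92-fold, and the secreted YAP target Ccn1 5.27-fold. Acta2, smooth muscle actin, measured 18778 and 25093 by its brightest probe and was 2-fold lower by its second, so its probes differ in direction. Ankrd1, another YAP target, measured 10497 and 9968. Actg1 was 3.01-fold lower by 2 probes while Actb measured 1922 and 2831. Pdlim7, a muscle LIM protein, was 4.67-fold higher, but of its 4 probes 2 were 2-fold or more higher and 2 were lower by as much. Cnn2 and Filip1l were 3.09-fold and 2.25-fold higher, and Tagln2, a relative of Tagln, was 5.75-fold lower. The CArG box was in 7 of 25 matched promoters (28%), in 1 of the 9 matched lower members and 2 of the 3 matched higher ones.

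Tubulins were lower in 8 of 12 and higher in 1, with a median of -1.14. Tubb5, the main beta-tubulin of dividing cells, had signals of 39196 in myoblasts, 23730 in BIO cellulates and 11489 in neurogenic cellulates and was 3.41-fold lower with 3.25-fold by its second probe. Tuba1c, an alpha-tubulin, measured 19183 in myoblasts, 8959 in BIO cellulates and 5649 in neurogenic cellulates and was 3.4-fold lower, and Tubb4b and Tubb4a were 3.93-fold and 3.96-fold lower. Tubb3, the beta-tubulin used as a marker of neurons, measured 755 in myoblasts, 459 in BIO cellulates and 384 in neurogenic cellulates, just within 2-fold. Tuba1a, the alpha-tubulin of growing neurons, was 6.46-fold higher by 1 probe that read 70.2, 34 and 453 on the 3 arrays. Tubulin genes are close in sequence, so a probe can take up RNA of a relative.

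**Figure D5:**
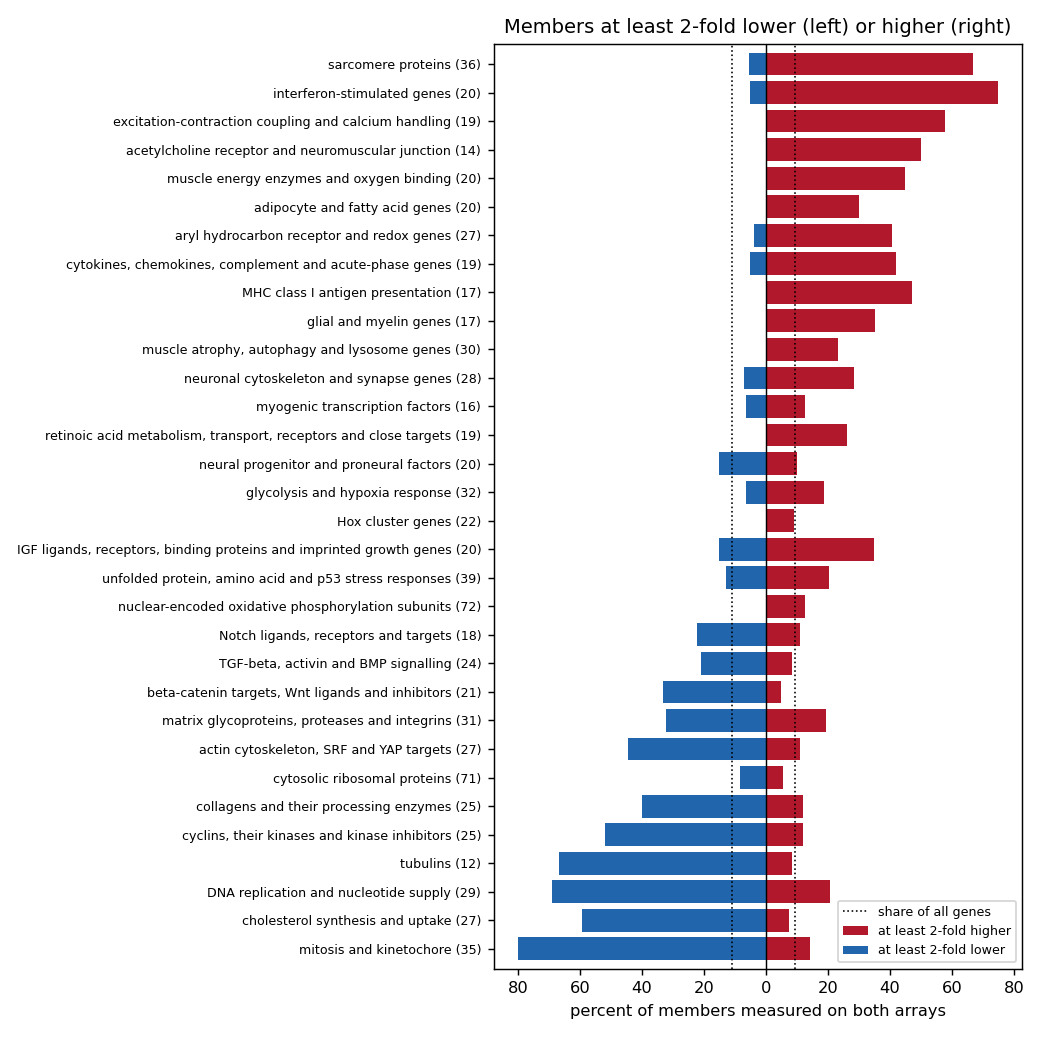
Share of each list's members measured on both arrays (in percent, x axis) that was at least 2-fold lower (blue bars, drawn to the left of 0) or higher (red bars, to the right) in neurogenic cellulates than in myoblasts, with the number of measured members in parentheses. Dotted lines mark the shares over all genes, 11.0% lower and 9.35% higher. Interferon-stimulated, sarcomere and coupling genes reach furthest to the right, and mitosis, replication and tubulin genes furthest to the left.

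Neural genes were mixed. Of 28 neuronal cytoskeleton and synapse genes measured on both arrays, 8 were higher and 2 lower, with a median of 0.46 (-0.27 with each array scaled to its median). Of the 8, 5 had a mean signal under 100 over the 3 arrays. Among the 13 members at 100 or more, 3 were higher and 2 lower, with a median of 0.105. Mapt, tau, which binds microtubules, had signals of 27.1 in myoblasts, 99.1 in BIO cellulates and 188 in neurogenic cellulates and was 6.94-fold higher, with 5.59-fold by its second probe. Vamp2, a vesicle fusion protein that muscle uses too, measured 329 in myoblasts, 1671 in BIO cellulates and 1195 in neurogenic cellulates and was 3.64-fold higher. Both were above their myoblast level on the BIO array as well. The adhesion protein Cntn1 and the vesicle protein Rab3a were 3.35-fold and 3.18-fold higher, at 35.9 and 43.4. Nefm, the medium neurofilament, read 3.36 and 14 in myoblasts and BIO cellulates, neither well above background, and 34.5 in neurogenic cellulates, at least 4.6-fold higher. Nefl, the light neurofilament, was at background on all 3 arrays, as were Gap43, a growth cone protein, and the synaptic proteins Syp and Gad1. Map2, a dendrite protein, measured 277 in myoblasts, 65.8 in BIO cellulates and 120 in neurogenic cellulates and was 2.31-fold lower, and Nsg1, an endosomal protein of neurons, 4971 in myoblasts, 10072 in BIO cellulates and 2079 in neurogenic cellulates and 2.39-fold lower.

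Of a set of 10 neuron markers, 6 were well above background in myoblasts and 4 in neurogenic cellulates. None of the 4 measured on both was 2-fold higher, and the summed signal of the 10 was 867 in myoblasts and 536 in neurogenic cellulates. Tubb3, a tubulin of neurons, gave 755 and 384 of these sums, and without it they were 112 and 152, the other way round. The sums include readings at background, where the floors of 7.52 and 16.8 differ. The order of the neuron sums was therefore not read as a result. Rbfox3, the NeuN antigen, measured 29.4, 37.9 and 29.3 on the 3 arrays, and Stmn2, of growing axons, 13.2, 26.8 and 23.4. Snap25, Syp, Nefl and Gad1 were at background on both arrays compared, and so was Dcx, of migrating neurons, which is not in the set. In contrast, all 8 skeletal muscle markers were at least 2-fold higher, and their summed signal went from 11537 to 244295. The label neurogenic therefore stands here for the medium the cells were given.

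Among 20 measured neural progenitor and proneural genes, 2 were higher and 3 lower, with a median of 0.25 (-0.48 with each array scaled to its median). These shares, 10.0% and 15.0%, are close to the 9.35% and 11.0% of all genes. Nes, nestin, which muscle precursors share with neural ones, measured 10574 in myoblasts, 18271 in BIO cellulates and 14451 in neurogenic cellulates. Sox11, a factor of immature neurons, had signals of 248 in myoblasts, 88.7 in BIO cellulates and 62.4 in neurogenic cellulates and was 3.97-fold lower with 4 of 5 probes past 2-fold, and Vim, vimentin, was 2.84-fold lower. Neurog1, a proneural factor, measured 194 and 104, and Sox2 and Neurod1 were at background on all 3 arrays. Dll1, a Notch ligand, measured 17.4 in myoblasts, 96.7 in BIO cellulates and 89 in neurogenic cellulates and was 5.12-fold higher. Rest, a repressor of neuronal genes, was 4.07-fold higher at 44.5 by 1 weak probe. Its other probe went the other way, with 16.1 in myoblasts and 7.54, not well above background, in neurogenic cellulates. Hes6, an inhibitor of Hes1, was 2.28-fold lower, or 1.7-fold by its second probe. Of 17 measured glial and myelin genes 6 were higher and 0 lower, and the median was 0.53 (-0.20 with each array scaled to its median), but 4 of the 6 had a mean signal under 100 over the 3 arrays. Gfap, the astrocyte filament, measured 13.3, 24.6 and 23.3. Apoe, a lipid carrier of astrocytes and other cells, was 2.84-fold higher at 248, and S100a1, which heart and skeletal muscle also express, 2.61-fold at 1123. Aldh1l1, an astrocyte enzyme, the myelin protein Pmp22 and the neurotrophin receptor Ngfr were 4.75-, 3.44- and 3.33-fold higher, at 66.1, 93.2 and 116. The other probe of Ngfr read 33.8 in myoblasts and 38.9 in neurogenic cellulates.

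Of the markers of other cell types, some were past 2-fold in single genes. Of 6 adipocyte markers 3 were well above background on each array and none of the 3 was 2-fold different, with Adipoq and Fabp4 at background. Endothelial and macrophage markers had 1 gene each above background on each array, with Pecam1 and Ptprc at background. Smooth muscle markers were lower in 3 of 6, and their summed signal went from 63823 to 32099. Fibroblast markers had 1 higher, Dcn, and 1 lower, Col1a1. Runx2, an osteoblast factor, measured 334 in myoblasts, 104 in BIO cellulates and 141 in neurogenic cellulates and was 2.38-fold lower, and Sp7, another, was seen in myoblasts alone and at least 2.45-fold lower. Of 4 chondrocyte markers measured on both arrays 1 was lower, Comp, a cartilage matrix protein, 7.06-fold with signals of 185 in myoblasts, 53.6 in BIO cellulates and 26.2 in neurogenic cellulates. Of 6 epithelial markers Krt18, a keratin, was seen on the neurogenic array alone, at 56.7, and was at least 7.28-fold higher. Cdh1 and Epcam, which define epithelium, were at background on both arrays.

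Wnt, TGF-beta and growth factor pathways moved gene by gene. Of 21 measured beta-catenin targets, Wnt ligands and inhibitors, 7 were lower and 1 higher, with a median of -0.40. The neurogenic cellulates had received BIO, which stabilises beta-catenin. Axin2, a common readout of that pathway, was at background on all 3 arrays, and Lef1, another, measured 239 in myoblasts, 95.6 in BIO cellulates and 144 in neurogenic cellulates. Wif1, a secreted Wnt inhibitor, was 6.88-fold lower from 1077 to 157, the receptor Fzd2 4.01-fold by 2 probes, and Rnf43, a ligase that removes Wnt receptors, 4.28-fold higher. The ligand Wnt4 and the secreted target Ccn4 were 3.48-fold and 3.6-fold lower. In the TGF-beta, activin and BMP list 5 of 24 were lower and 2 higher, with a median of -0.32. Fst, follistatin, which binds myostatin and activin, had signals of 16238 in myoblasts, 7838 in BIO cellulates and 1960 in neurogenic cellulates and was 8.28-fold lower. The BMP antagonist Nog was 2.78-fold lower, and the inhibitory Smad7 2.69-fold. Gdf15, a stress-induced cytokine, and Eng, a co-receptor, were 3.63-fold and 2.1-fold higher.

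In the IGF and imprinted gene list 7 of 20 were higher and 3 lower, with a median of 0.08 (-0.65 with each array scaled to its median). Igf1, which promotes muscle growth, had signals of 1741 in myoblasts, 1483 in BIO cellulates and 6212 in neurogenic cellulates and was 3.57-fold higher with 4.84-fold by its second probe. Plagl1, an imprinted zinc finger gene, measured 129 in myoblasts, 76.4 in BIO cellulates and 690 in neurogenic cellulates and was 5.35-fold higher, and Sgce, an imprinted sarcoglycan, 7.33-fold, both by 2 probes. For all 3 the BIO signal was within 2-fold of the myoblast signal. Igf2 measured 24611 and 25838. Igfbp5, a binding protein made by differentiating muscle cells, was 4.9-fold higher, and the insulin receptor adaptor Grb14 was 2.56-fold lower. Mest and Grb10, also imprinted, were 6.62-fold and 3.48-fold lower and were also lower on the BIO array, at 871 and 3649. In the Notch list 4 of 18 were lower (22.2%, against 11.0% of all genes) and 2 higher (11.1% against 9.35%), with a median of -0.215. Dner, a Notch ligand of neurons, was 7.73-fold lower. Lfng, which glycosylates the receptors, and Nrarp, a feedback inhibitor, were 3.52-fold and 2.42-fold lower, and the ligand Dll4 was 2.68-fold higher.

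Glycolysis and stress genes went both ways, and 24 of 32 and 26 of 39 lay within 2-fold, smaller shares than the 79.6% of all genes. Of 32 glycolysis and hypoxia genes 6 were higher and 2 lower (median 0.22, or -0.51 with each array scaled to its median). Vegfa, which recruits vessels, had signals of 572 in myoblasts, 1536 in BIO cellulates and 3269 in neurogenic cellulates and was 5.71-fold higher by 4 probes, and Adm, adrenomedullin, was 4.97-fold higher. Gapdh measured 50627 and 45919. Hk2, a hexokinase, and Ankrd37, a hypoxia target, were 3.76-fold and 3.06-fold higher, and the glucose transporter Slc2a3 and the enolase Eno1 were 4-fold and 2.57-fold lower. Pdk4, a kinase that inhibits pyruvate dehydrogenase, was at least 23.2-fold higher. In the stress list 8 of 39 were higher and 5 lower (median 0.07, or -0.66 with each array scaled to its median). Atf3 and Ddit3, transcription factors of the integrated stress response, were 6.19-fold and 4.62-fold higher, Ddit3 with signals of 1336 in myoblasts, 3581 in BIO cellulates and 6171 in neurogenic cellulates, and Xbp1 and Pdia4, of protein folding in the endoplasmic reticulum, were 2.36-fold and 2.47-fold lower. Asns, asparagine synthetase, was 4.73-fold higher, and Gadd45b and Creld2 were 3.16-fold and 2.19-fold lower.

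Among muscle atrophy, autophagy and lysosome genes 7 of 30 were higher and 0 lower, with a median of 0.52 (-0.21 with each array scaled to its median). Klf15, a glucocorticoid target that promotes amino acid breakdown in muscle, had signals of 20.2 in myoblasts, 178 in BIO cellulates and 377 in neurogenic cellulates and was 18.6-fold higher, and 2.1-fold by its second probe. Fbxo32, atrogin-1, a ubiquitin ligase of wasting muscle, was 3.61-fold higher, and Trim63, MuRF1, its partner in wasting, at least 3.5-fold. Npc2, a lysosomal cholesterol carrier, and Lgmn, a lysosomal protease, were 8.75-fold and 5.39-fold higher. In the aryl hydrocarbon receptor and redox list 11 of 27 were higher and 1 lower (median 0.65, or -0.08 with each array scaled to its median). Akr1c18, a steroid dehydrogenase, was 68.8-fold higher, with signals of 12.7 in myoblasts, 1763 in BIO cellulates and 875 in neurogenic cellulates. Gsta1, a glutathione transferase, measured 119 in myoblasts, 1144 in BIO cellulates and 2036 in neurogenic cellulates and was 17.1-fold higher. Inmt, an indole methyltransferase, measured 28.7 in myoblasts, 53.4 in BIO cellulates and 1654 in neurogenic cellulates and was 57.6-fold higher. The metallothioneins Mt2 and Mt1 were 10.4-fold and 2.59-fold higher. Gpx7, a peroxidase, was 2.06-fold lower. Of 20 adipocyte and fatty acid genes 6 were higher and 0 lower (median 0.66, or -0.06 with each array scaled to its median), led by Plin2, a lipid droplet protein, 9.55-fold higher with signals of 39.6 in myoblasts, 37.3 in BIO cellulates and 378 in neurogenic cellulates. Cebpa, a transcription factor of fat cells, the lipase Lipe and the secreted Angptl4 were 6.48-, 2.87- and 2.2-fold higher, and Lipe was 1.54-fold higher by its second probe.

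Most cytosolic ribosomal proteins and respiratory subunits lay within 2-fold, as did 79.6% of all genes. Of 71 ribosomal genes 61 lay within 2-fold, 6 were lower (8.45%, against 11.0% of all genes) and 4 higher (5.63% against 9.35%). Their median was -0.63. Of 72 nuclear-encoded respiratory subunits 63 lay within 2-fold, 9 were higher (12.5%) and 0 lower. Their median was -0.20 (0.12 with the percentile over bright probes and 0.28 after quantile normalisation). The largest exceptions rest on 1 probe each. Rpl39 measured 8.93 in myoblasts and 532 in neurogenic cellulates, Rpl41 146 and 2790, and Atpif1, the inhibitor of ATP synthase, 10.6 and 518, ratios of 59.5-, 19.2- and 49-fold. Rps4x, Rpl37a, Uqcr10, Sdhd and Ndufb10 were 14.3-, 12.9-, 32.9-, 6.83- and 6.37-fold higher. On the lower side, Rps19, Rpsa and Rps15 were 2.47-, 2.46- and 2.16-fold lower. Whether these ratios reflect the transcripts was not tested. The proteasome subunit Psma2 and the lysosomal protease Ctsl, at least 37.4-fold and 45-fold higher, were likewise at background on the BIO and myoblast arrays by their only probe.

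Outside these lists, several large differences stood by 2 probes. Rbpms, an RNA-binding protein of muscle and ganglion cells, was 11.2-fold higher, with signals of 31 in myoblasts, 149 in BIO cellulates and 349 in neurogenic cellulates. Gramd1b, which moves cholesterol from the plasma membrane, was 9.38-fold higher, with 157 in myoblasts, 493 in BIO cellulates and 1473 in neurogenic cellulates. Sat1, the rate-limiting enzyme of polyamine breakdown, measured 1068 in myoblasts, 2794 in BIO cellulates and 9545 in neurogenic cellulates and was 8.94-fold higher. Gsdma, a gasdermin, was 8.2-fold higher. Against the BIO array, Gramd1b and Sat1 were 1.58 and 1.77 log2 higher and Gsdma 0.15 log2 higher. Among lower genes, Mgll, which hydrolyses monoglycerides, had signals of 1367 in myoblasts, 432 in BIO cellulates and 112 in neurogenic cellulates and was 12.2-fold lower, with 11-fold by its second probe. Ntm, neurotrimin, a neural adhesion protein, was 5.45-fold lower, Nkain4, a partner of the sodium pump, 6.59-fold, the splicing protein Lsm2 5.6-fold and the zinc exporter Slc30a1 5.26-fold.

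Others rest on a single probe. Anxa8, an annexin, had the largest ratio downward, with signals of 1376 in myoblasts, 134 in BIO cellulates and 20.1 in neurogenic cellulates, 68.4-fold lower. Ptgis, prostacyclin synthase, measured 606 in myoblasts, 318 in BIO cellulates and 20.6 in neurogenic cellulates and was 29.4-fold lower. For both, the BIO signal lay between the others. Crip2, a LIM protein, was 9.63-fold lower, Ccdc88b 12.3-fold and the mast cell protease Mcpt4 12-fold. Mustn1, a small protein of muscle and bone, was 75.2-fold higher, with signals of 23.8 in myoblasts, 2449 in BIO cellulates and 1793 in neurogenic cellulates. Myo18b, an unconventional myosin needed for sarcomere assembly, was at least 181-fold higher, the largest bound, and Abra, an actin-binding protein of muscle, at least 90.1-fold. Tenm4, a teneurin, Art3, an ADP-ribosyltransferase-like protein of muscle, and Myl1, a fast myosin light chain, were at least 44.8-, 33.7- and 32.1-fold higher. Bounds downward were smaller: Areg, amphiregulin, a growth factor of the epidermal growth factor family, was at least 8.9-fold lower, the membrane protein Emp1 at least 7.01-fold, and Megf10, a receptor of satellite cells, at least 6.05-fold. Gas2l3, a cytoskeletal linker of dividing cells, Atp2c2, a Golgi calcium pump, the unstudied transcript 4930523C07Rik and the olfactory receptor Olfr1290 were at least 6.09-, 5.33-, 9.8- and 5.23-fold lower.

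The BIO array was set beside these differences, with no test. Of the 1018 genes higher than in myoblasts, 747 were within 2-fold of their BIO signal and 260 were at least 2-fold above it. Of the 1199 lower genes, 1105 were within 2-fold of their BIO signal and 90 at least 2-fold below it. The same shares over all measured genes were not counted, so these counts cannot be judged against them. A gene within 2-fold of its BIO signal need not differ by 2-fold between the BIO and myoblast arrays. The muscle genes Acta1, Ttn and Ckm and the division genes Plk1 and Gins1 were within 2-fold of their BIO signal. Cyp26b1, Dhrs3, Clu and Igf1 were at least 2-fold above it. Muscle genes were not all of 1 kind: Myl3, Myh1 and Myh8 were also at least 2-fold above their BIO signal, and Myl4 was 2.16 log2 below it. The median log2 ratio of neurogenic over BIO cellulates for the measured sarcomere genes was -0.31. Both ratios share the neurogenic array, and the labels do not say whether the cellulate arrays came from one culture.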

How the data were processed

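RNA of 3 C2C12 samples was measured on 1-colour Agilent mouse arrays (design 014868), from 200 ng of total RNA labelled with Cy3, per the labels' protocols. The deposited intensity values were extracted with Feature Extraction 10.7.3.1, per the file headers, and the processed signal used here is that software's background-corrected intensity. The deposited value table holds log2 values of the same arrays, used only as an alternative. What the authors did beyond this is not given in the sources used here.

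Each processed signal was divided by its array's 75th percentile over non-control spots and taken to log2. Spots marked as outliers were dropped, and repeat spots were averaged by probe. Of 41174 probes, 26918 were named by accession through the RefSeq table of GRCm38.p6, giving 18348 genes, each represented by its brightest probe over the 3 arrays. For 82 genes, probes disagreed on which array they stood above background, and these were left out of the counts. Genes were called at 2-fold with no test, since each group is 1 array. Genes to be named were the largest ratios with and without a second probe, the largest bounds, the extremes of each list and a set of well-known genes, with further list members given as context after their values were seen. The members and lists were chosen with earlier results of these data known. Some genes among these are not reported here. Promoter sequences are from RefSeq. The counting was tested on simulated data. Python 3.11.15, numpy 2.4.6, pandas 2.3.3, R 4.3.3 and limma 3.58.1 were used. Alternatives covered scaling, background correction, the filter, the choice of probe and the deposited table. The array files used here hold median and not mean spot signals, so the normexp correction (offset 50) used the medians.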

Additional observations from a re-analysis of the deposited data

How the results depend on the processing

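With 1 array a group no array could be left out, and no paired analysis was possible because each group has 1 sample. The count of 1018 higher and 1199 lower genes was 337 and 4686 when arrays were scaled by their medians, and 1712 and 604 with the 75th percentile over bright probes. Quantile normalisation gave 789 lower genes, normexp 399 higher genes and no filter 5118 higher genes. The median over a gene's probes gave 1024 and 1117, and the deposited values 1055 and 1148. The first pair of settings adds 1 constant to every log2 ratio, -0.730 and 0.317. For the others the cause was not tested. Scaling to the median turned 15 of the 32 list medians below 0: muscle energy (-0.042), MHC class I (-0.164), cytokine (-0.133), glial (-0.199), lysosome (-0.213), redox (-0.076), adipocyte (-0.065), Hox (-0.550), IGF (-0.649), glycolysis (-0.510), myogenic factor (-0.304), progenitor (-0.479), neuronal (-0.270), retinoic acid (-0.358) and stress (-0.663) genes. The percentile over bright probes turned those of Notch (0.102) and respiratory (0.116) genes above 0, quantile normalisation that of respiratory genes (0.282), and with no filter that of matrix genes was 0.078. Of 1470 values of named genes under the alternatives, 353 moved by more than the limit of repeat spots, 0.446 log2, and 0 of those past 2-fold changed direction. Weak signals near background limit the rest: the lowest measurable level differed between the arrays, 7.52 against 16.8.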

Other observations

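Probes with no gene name here were counted in the same way. Of 3030 such probes well above background on both arrays, 318 (10.5%) were at least 2-fold higher in neurogenic cellulates and 234 (7.72%) at least 2-fold lower.

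Of the 539 genes measured on the neurogenic array alone, 343 were dim on the BIO array too and 196 were well above background there. Among the 74 with a bound of at least 8-fold, 50 were dim on the BIO array.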
